A study of Mus musculus with 25 samples.

Results

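RNA was measured in mouse metaphase II (MII) oocytes, eggs arrested at the stage at which they wait for a sperm, that had matured in culture with VCD or with PBS. VCD is the agent under test, which the labels name only by that code, and PBS is phosphate-buffered saline, the control. Germinal vesicle oocytes of C57BL/6 mice were cultured in M16 medium for 16 h with 1 of the agents, oocytes with a first polar body were taken as MII, and Smart-seq2, which amplifies full-length cDNA from very little RNA, gave 5 libraries with VCD and 4 with PBS. All animals were of 1 strain and no genotype differed between the agents. The labels give neither the dose of VCD nor how many oocytes went into a library, nor do they tie libraries to animals or cultures, so the p-values measure the spread between these libraries, which may be technical. Out of 25 libraries of the series, these 9 were chosen by stage and agent, with earlier results of these data known. Of 25158 genes in the oocyte table, the 8715 with at least 1 FPKM (fragments per kilobase of transcript, scaled to library size) in at least 4 of the 9 libraries were tested. Recovered reads came to 16382925 to 20055010 per library, so that 1 read in a gene of 1 kb was worth 0.0499 to 0.0610 FPKM.

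A fully grown oocyte stores the mRNA that it will need and makes almost no new RNA from the resumption of meiosis until the embryonic genome is switched on. During maturation some stored messages are translated and others lose their poly(A) tails and decay, under RNA-binding proteins, the CCR4-NOT deadenylase and its adaptor BTG4. In these libraries fewer cells and less RNA per cell cannot be told apart.

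The libraries carried the transcripts that define an oocyte. Bcl2l10, an oocyte member of the BCL-2 family, had the highest mean of all genes at 10089 ± 596 FPKM with VCD and 10829 ± 475 FPKM with PBS (SD, n = 5 and 4). Zbed3, whose product joins the maternal complex under the oocyte cortex, had 9187 ± 520.2 FPKM with VCD and 9574 ± 351 FPKM with PBS. Gdf9, a growth factor through which the oocyte acts on its cumulus cells, had 3281 ± 191 FPKM with VCD and 3363 ± 204 FPKM with PBS. Of 20 markers of cumulus and granulosa cells, 19 were in the table and 1 passed the filter. That marker, Cyp19a1, the aromatase of oestrogen synthesis, had 7.23 to 9.62 FPKM with VCD and 8.20 to 10.1 FPKM with PBS, and the highest value of any other was 0.722 FPKM, of Inha. Amh and Ptx3, further markers of those cells, were at 0 in most libraries. The summed level of the list was 8.66 to 11.6 FPKM with VCD and 10.003 to 12.9 FPKM with PBS. Dcn of stroma and Cd68 of macrophages were the only markers of their lists that passed, and no sperm marker did.

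Almost no gene was called for a difference in mean level between the agents. A limma test on log2(FPKM + 1), with p-values adjusted by Benjamini and Hochberg over all 8715 genes, called 1 gene higher with VCD, 0.0115% of those tested, and 0 lower. An unadjusted p below 0.05 was found for 245 genes, 2.81% of those tested, against 436 that a rate of 0.05 would give. For 8633 genes (99.1%) the 95% confidence interval of the difference lay within 2-fold of FPKM + 1 in both directions. For low genes that bound allows larger differences in FPKM. The groups did not overlap in 91 genes, 1.04% of those tested; 60 of these (0.688% of those tested) were higher with VCD and 31 lower. The count with an unadjusted p below 0.05 was 503 without VCD replicate 3 and 149 without PBS replicate 4.

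The gene called was Gm24984 (ENSMUSG00000077642), annotated as a small nucleolar RNA (snoRNA), the class of RNA that guides chemical modification of other RNAs. It lies on the plus strand of chromosome 10 at 72527550-72527682 in the mouse build GRCm38 (GENCODE M21), overlaps no other annotated gene, and its nearest neighbour, Zwint, is 127163 bases away. Its annotated transcript of 133 bases is shown whole because it is the sole gene that passed; no part of it is marked.
Gm24984: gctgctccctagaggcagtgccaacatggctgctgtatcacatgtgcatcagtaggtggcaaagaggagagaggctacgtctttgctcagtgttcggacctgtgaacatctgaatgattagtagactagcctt

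Gm24984 had 1.87, 1.93, 1.82, 2.28 and 2.29 FPKM with VCD, against 0, 0.397, 0 and 0.402 FPKM with PBS. Every VCD library was above every PBS library. The log2 difference was 1.36 (SE 0.13), with an adjusted p of 0.00444 in the limma test. The gene passed the filter on low values only through the VCD libraries, since each PBS library was below 1 FPKM, so it entered the test as a gene that was higher with VCD. These values correspond to 5, 5, 4, 6 and 5 recovered reads with VCD (25 in all) and to 0, 1, 0 and 1 with PBS (2 in all). With PBS libraries at 0, the log2 difference depends on the pseudocount: it was 3.25 when 0.1 was added to FPKM in place of 1, and the call was not kept (adjusted p = 0.394). It was not kept either when no filter on low values was applied (adjusted p = 0.0635), and a filter at 5 FPKM removes the gene. With the replicate number as a block the adjusted p was 0.136. Most snoRNAs lack the poly(A) tail on which Smart-seq2 primes. The plot of levels by library shows this gene beside genes that differed in spread.

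**Figure D1:**
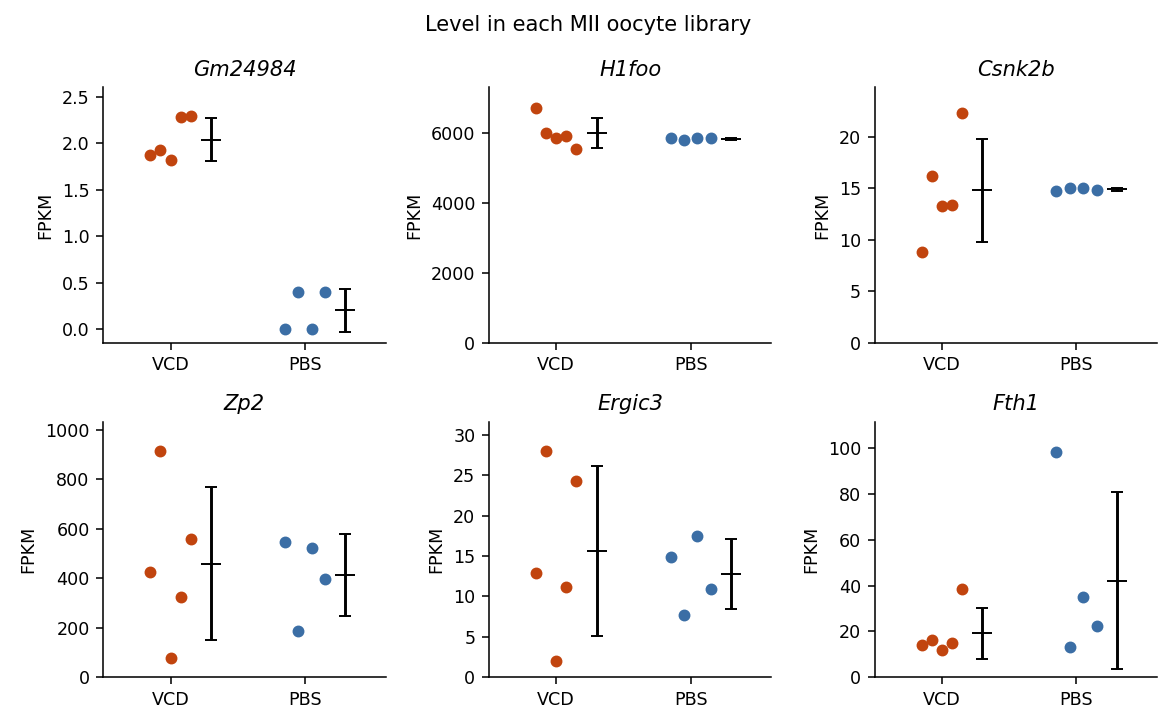
FPKM (vertical axes, linear) of 6 genes in each MII oocyte library with VCD (left, n = 5) and PBS (right, n = 4); points are libraries, and black bars are the mean ± SD. Gm24984 separates the agents at 1.82 to 2.29 FPKM against 0 to 0.402 FPKM, H1foo and Csnk2b scatter with VCD and lie close together with PBS, Zp2 and Ergic3 scatter with both, and Fth1 scatters most with PBS.

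None of the other genes passed; all had an adjusted p of 0.999. Those of smallest unadjusted p with at least 5 FPKM in the higher group are given as values only. Cdt1, which loads the replicative helicase onto origins, had 47.7, 40.9, 41.3, 51.6 and 45.3 FPKM with VCD and 33.9, 36.2, 38.9 and 30.8 FPKM with PBS (log2 difference 0.37, SE 0.10). Its groups did not overlap. Actr3, a subunit of the ARP2/3 complex that branches actin, had 28.5, 26.3, 18.4, 23.8 and 17.5 FPKM with VCD and 16.2, 17.0, 16.7 and 16.004 FPKM with PBS (0.43, SE 0.14). Pkmyt1, a kinase that restrains CDK1, had 34.8 to 47.8 FPKM with VCD and 29.8 to 33.3 FPKM with PBS (0.28, SE 0.10). Naaa, a lysosomal hydrolase of N-acylethanolamines, was at 4.44 to 5.94 FPKM with VCD and 6.35 to 7.12 FPKM with PBS (log2 difference -0.28, SE 0.09). Smox, which oxidises the polyamine spermine, had the smallest unadjusted p of its list with 1.99 to 2.89 FPKM with VCD and 1.002 to 1.504 FPKM with PBS (0.55, SE 0.11). Of the 20 genes so ranked, 19 were tested in 2-cell embryos, where 15 had the same direction, and 20 in morulae, where 10 did. The share with the same direction over all genes was not counted, so these counts were not read as a result. Over all genes tested in both, Pearson's r between the log2 differences of oocytes and embryos was 0.16 at the 2-cell stage (8030 genes). In morulae it was 0.08 (5764 genes). None of the 20 was called in either embryo stage, where 0 of 11369 genes (0%) and 1 of 9959 genes (0.01%) were called over all genes.

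The gene lists, grouped by role, held no other called gene. Of 20 genes tested for MII arrest and maturation promoting factor, 8 had a positive and 12 a negative log2 difference (median -0.05). Ccnb1, the cyclin B1 subunit of that factor, had 812, 703, 700.0, 599 and 644 FPKM with VCD and 727, 676, 681 and 802 FPKM with PBS. Fbxo43, the inhibitor that holds the oocyte at metaphase II, had 199.8 to 243 FPKM with VCD and 206 to 234 FPKM with PBS. The median log2 difference was -0.02 over 23 genes of the spindle checkpoint and chromosomal passenger complex, 0.03 over 13 of cohesin and separase, and 0.0003 over 19 of maternal mRNA decay. Over all genes tested it was 0.01. Btg4, the adaptor of that decay, had 3489 ± 178 FPKM with VCD and 3586 ± 63.9 FPKM with PBS.

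The tested genes that respond to toxicants and damage were no exception. The median log2 difference was -0.06 over 14 genes of p53 and its targets and 0.009 over 22 of DNA damage signalling and homologous recombination, with 6 and 12 genes positive. Trp53 itself had 27.1 to 31.6 FPKM with VCD and 29.0 to 32.3 FPKM with PBS, and Chek1, a checkpoint kinase, had 181 to 231 FPKM with VCD and 193 to 223 FPKM with PBS. Glutathione peroxidase Gpx3 had 121 to 134 FPKM with VCD and 124 to 144 FPKM with PBS. The median over 6 genes of glutathione transferases and epoxide metabolism was -0.04, and over 10 of the Bcl-2 family and caspases -0.02. Each of those lists named 23 genes, and the members not tested were below the filter or not in the table. Bcl2l10 was not in the Bcl-2 list, and its log2 difference was -0.10. In each of these 4 lists the 95% interval of every tested gene lay within 2-fold. Among larger lists the counts were one-sided for histone modification, with 23 of 29 genes positive and a median of 0.10, and for maternal effect and zygotic reprogramming, with 17 of 21 positive and a median of 0.10. Over all genes 4694 were positive and 4021 negative. Not all VCD libraries shared this direction. The histone list's median deviation from the gene medians was -0.06, 0.08, -0.01, 0.15 and 0.02 in VCD replicates 1 to 5. With PBS it was lowest in replicate 4, at -0.11. For the maternal effect list the values were -0.005, 0.20, -0.15, 0.12 and 0.009 with VCD, and PBS replicate 4 was again lowest, at -0.08.

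The libraries differed more among themselves with VCD than with PBS. The SD of log2(FPKM + 1) was larger with VCD in 6547 genes, 75.1% of those tested, with a median SD of 0.200 with VCD and 0.134 with PBS and a median ratio of 1.49. The range with VCD held the whole range with PBS in 4107 genes, 47.1% of those tested, and the reverse was true of 580 (6.66%). Group sizes of 5 and 4 alone would give 27.8% and 16.7%. No gene passed the test of spread, a limma fit of each library's absolute deviation from its agent's mean (smallest adjusted p 0.308; 0% of genes called). Its unadjusted p was below 0.05 in 1180 genes, of which 1060 were wider with VCD (12.2% of those tested) and 120 narrower. With deviations taken from the median in place of the mean, 146 genes had an unadjusted p below 0.05. The unadjusted count thus depended on the centring, and it was not read as a result for single genes. With no filter on low values, 1922 of 25158 genes passed the test of spread, of which 421 were wider with VCD. The rest, the larger part, were narrower with VCD.

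The same was seen for whole libraries, with measures that did not use the agent. Averaged over its pairings with the other 8, a library's distance (1 minus Pearson's r over the tested genes) was 0.0177, 0.0157, 0.0171, 0.0173 and 0.0171 with VCD and 0.0126, 0.0128, 0.0121 and 0.0135 with PBS. Every VCD library stood farther off than every PBS library. The median absolute deviation from the gene median was 0.152, 0.123, 0.122, 0.127 and 0.120 with VCD and 0.0773, 0.0830, 0.0718 and 0.107 with PBS, again without overlap. The exact permutation test over all assignments of the 9 libraries gave p = 0.0159 (two-sided) for each, the smallest it allows with 5 and 4 libraries; adjusted over the 8 library measures compared, p was 0.0635 and did not pass. The other 6 measures overlapped between the agents: genes detected at 1 FPKM or more (8257 to 8941 with VCD, 8419 to 8652 with PBS), the percentage of FPKM from mitochondrially encoded genes (1.36% to 2.79% with VCD, 1.44% to 2.05% with PBS) and from ribosomal protein genes, the share of the 10 most abundant genes, the summed cumulus markers and the implied depth, with permutation p of 0.270 to 0.730.

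**Figure D2:**
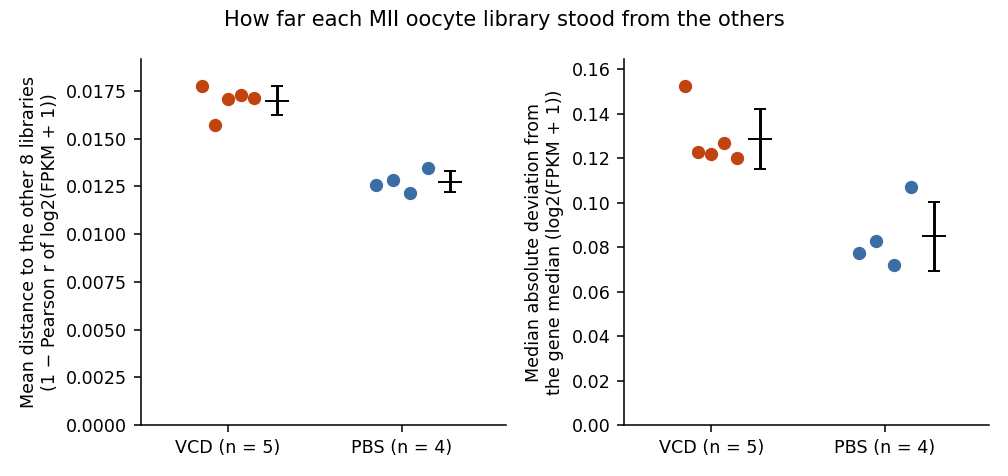
Distance of each MII oocyte library from the other 8, averaged (left panel) and median absolute deviation from the gene median (right panel), both over the tested genes, for VCD (left, n = 5) and PBS (right, n = 4). Points are libraries and black bars the mean ± SD. In both panels the lowest VCD value (0.0157 and 0.120) is above the highest PBS value (0.0135 and 0.107).

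On the first pair of principal components the VCD libraries lay on different sides of the PBS libraries. On the first principal component, with 28.6% of the variance, they lay at -9.99, 13.2, -18.8, 2.53 and 19.1, while the PBS libraries lay between -6.04 and 5.49. On the second, with 22.2%, they lay at -17.8, -10.5, 9.71, 16.3 and 4.91, and the PBS libraries between -5.17 and 2.45. The distance between 2 VCD libraries was 0.0133 (replicates 2 and 5) to 0.0253 (replicates 1 and 5), and between 2 PBS libraries 0.00902 to 0.0109. The lowest distance between 2 VCD libraries was thus above the highest between 2 PBS libraries.

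**Figure D3:**
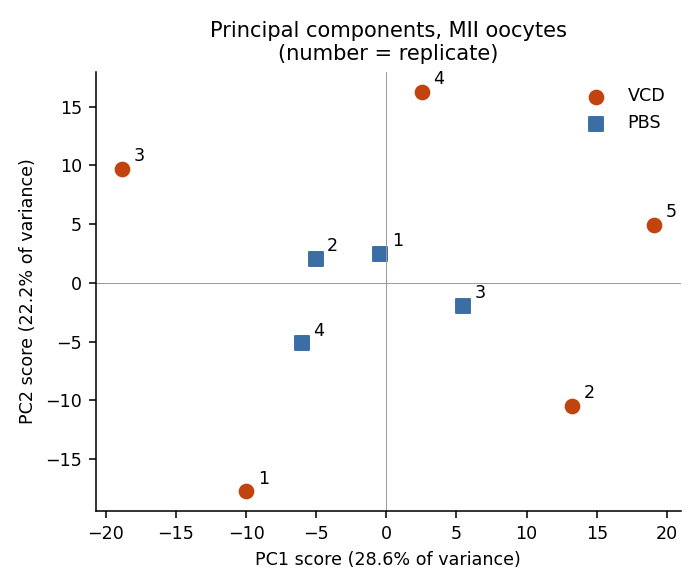
Scores of the 9 MII oocyte libraries on the first (horizontal, 28.6% of variance) and second (vertical, 22.2%) principal components of log2(FPKM + 1) over the tested genes; circles are VCD, squares PBS and the number is the replicate. The PBS libraries lie near the centre and the 5 VCD libraries lie around them in different directions.

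The excess of spread with VCD was present at each level of abundance, and the share of genes that showed it was higher among abundant genes. The median SD was lower there with both agents. It was 0.211 with VCD and 0.157 with PBS below 2 FPKM, 0.203 and 0.132 at 5 to 20 FPKM, and 0.156 and 0.0867 at 100 FPKM or more. The SD was larger with VCD in 67.9% of genes with a mean below 2 FPKM, 77.0% of those at 5 to 20 FPKM and 87.0% of those at 100 FPKM or more. Among 7503 protein-coding genes it was 76.6%, and among 395 long intergenic non-coding RNAs 64.1%. In the embryos of the series the SD was larger with VCD in 64.8% of genes at the 2-cell stage and 60.9% in morulae, with median ratios of 1.29 and 1.18; the difference between stages was not tested. Over the 8030 genes tested in both, Pearson's r between the log2 SD ratios of oocytes and 2-cell embryos was 0.06. For oocytes and morulae it was -0.001 (5764 genes). Both are descriptions across genes, which are not independent.

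Single genes with a large ratio of SDs show what this spread looked like. H1foo, the linker histone of the oocyte, had 6721, 6013, 5858, 5917 and 5563 FPKM with VCD and 5858, 5812, 5859 and 5856 FPKM with PBS. The PBS libraries were almost equal, and the VCD libraries reached above and below them; the SD of log2(FPKM + 1) was 0.1003 with VCD and 0.00572 with PBS. Csnk2b, the regulatory subunit of casein kinase 2, had 8.78, 16.3, 13.3, 13.4 and 22.3 FPKM with VCD and 14.8, 15.03, 15.1 and 14.8 FPKM with PBS. Hsbp1, which binds heat shock factor 1, had 15.8, 24.2, 19.5, 23.5 and 33.8 FPKM with VCD and 24.1, 23.5, 23.2 and 23.6 FPKM with PBS. In both, replicate 1 was the lowest and replicate 5 the highest of the VCD libraries, on either side of PBS, and the means did not separate (log2 differences -0.07 with SE 0.20, and -0.06 with SE 0.17). Polr2j, a subunit of RNA polymerase II, had 34.8, 51.04, 25.5, 27.2 and 59.9 FPKM with VCD and 36.2, 35.8, 38.1 and 35.2 FPKM with PBS. Eif2s2, a subunit of initiation factor eIF2, had 25.8 to 42.5 FPKM with VCD and 34.1 to 35.6 FPKM with PBS. Ewsr1, an RNA-binding protein, went another way, with its highest value of 19.3 FPKM in VCD replicate 4, 7.27 to 11.3 FPKM in the other VCD libraries and 9.001 to 9.65 FPKM with PBS. H1foo was named for its level, and among the 10 genes of highest level its ratio of SDs was the largest, at 17.5. Oas1d was next at 10.4, and the rest lay between 0.962 (Gdf9) and 2.85 (Btg4). The other genes of this paragraph were named for a small p in the test of spread, so their spread is a description. The gene of smallest p in that ranking went the other way: Gm42880 had 7.06, 6.49, 6.59, 6.50 and 6.25 FPKM with VCD and 5.78, 9.998, 4.25 and 6.64 FPKM with PBS, a ratio of SDs of 0.126.

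The genes of largest SD scattered with both agents. Zp1, Zp2 and Zp3 encode the coat of the egg, the zona pellucida, to which sperm bind. Zp1 had 585, 965, 122, 314 and 592 FPKM with VCD and 477, 227, 561 and 357 FPKM with PBS. Zp2 had 427, 914, 76.9, 324 and 557 FPKM with VCD and 548, 187, 523 and 395 FPKM with PBS, an 11.9-fold range with VCD and a 2.93-fold range with PBS. Zp3 had 701, 1307, 305, 543 and 815 FPKM with VCD and 894, 393, 781 and 642 FPKM with PBS. For all 3 the highest library was VCD replicate 2, the lowest VCD replicate 3 and, within PBS, the lowest replicate 2. The log2 differences between agents were 0.12 (SE 0.50), -0.11 (SE 0.59) and 0.02 (SE 0.36), and each took either sign when 1 library was left out (-0.18 to 0.57 for Zp1, -0.46 to 0.43 for Zp2 and -0.22 to 0.30 for Zp3).

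Of the 10 genes of largest SD within VCD, Zp1 and Zp2 among them, 9 were lowest in VCD replicate 3 and 8 were highest in VCD replicate 2. The exceptions were Sh3bgrl3, highest in VCD replicate 5 at 16.6 FPKM, and Gm23935, lowest in replicate 2 at 3.60 FPKM and highest in replicate 5 at 31.1 FPKM, whose sequence is wholly shared with other genes. Ergic3, a membrane protein of the early secretory pathway, had 12.9, 27.97, 1.97, 11.2 and 24.3 FPKM with VCD and 14.9, 7.68, 17.5 and 10.9 FPKM with PBS. Tmsb10, which binds monomeric actin, had 14.2, 36.7, 3.70, 16.8 and 33.2 FPKM with VCD and 20.4, 11.5, 25.3 and 18.6 FPKM with PBS. Tcn2, which carries vitamin B12, had 2.11 to 17.3 FPKM with VCD and 5.06 to 13.0 FPKM with PBS. Cd9 and Izumo1r, the egg surface proteins needed for fusion with sperm, had 11.6 to 45.8 and 24.6 to 66.9 FPKM with VCD, against 18.8 to 40.8 and 33.9 to 60.3 FPKM with PBS, and VCD replicate 3 was the lowest and replicate 2 the highest VCD library for both; these genes were chosen after their values were seen. Astl, the protease that hardens the coat after fertilization, varied less, with 462 to 651 FPKM with VCD and 532 to 632 FPKM with PBS.

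By gene list, the 3 largest housekeeping lists were among those with the highest ratio of spread. Of 28 cytosolic ribosomal protein genes tested, 25 had the larger SD with VCD (median ratio 2.57), of 29 nuclear genes of the respiratory chain 25 did (2.25), and of 25 proteasome subunits 23 did (2.11); over all genes these figures were 75.1% and 1.49. The median deviation of the ribosomal protein genes from their gene medians was -0.44, 0.38, -0.17, -0.06 and 0.38 in VCD replicates 1 to 5 and -0.02 to 0.10 with PBS. That of the nuclear respiratory chain was -0.21, 0.23, -0.18, -0.08 and 0.36 with VCD and 0 to 0.08 with PBS, and that of the proteasome -0.29, 0.06, -0.08, 0 and 0.27 with VCD and -0.03 to 0 with PBS. All 3 were lowest in VCD replicate 1 and high in replicate 5. Uqcrc2, a core subunit of respiratory complex III, had 41.6, 61.0, 60.1, 55.5 and 76.4 FPKM with VCD and 61.5, 59.2, 59.2 and 62.1 FPKM with PBS. Psma7, a subunit of the proteasome core, had 8.81, 19.4, 14.5, 17.5 and 30.2 FPKM with VCD and 16.4, 18.6, 17.9 and 17.0 FPKM with PBS. Rpl15, a protein of the large ribosomal subunit, went against its list with 24.5 to 26.6 FPKM with VCD and 25.1 to 27.4 FPKM with PBS.

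Mitochondrially encoded genes, mostly subunits of the same respiratory chain, deviated the other way in VCD replicates 1 and 5. Their median deviation was 0.21, 0, 0.27, -0.21 and -0.32 with VCD and -0.38 to 0.15 with PBS. The SD was larger with VCD in 7 of 11 of these genes (63.6%), against 75.1% of all genes. Of the members named by rule, mt-Cytb had a 1.86-fold range with VCD and a 1.42-fold range with PBS. For mt-Nd6 the range was 1.59-fold with VCD and 1.78-fold with PBS. mt-Co1, a subunit of complex IV encoded in the mitochondrion, had 3191, 2229, 2137, 1086 and 1002 FPKM with VCD and 1859, 1568, 1230.0 and 1683 FPKM with PBS. It was highest in VCD replicate 1 and lowest in replicate 5, while Cox8a, a nuclear-encoded subunit of complex IV, had 58.01, 99.5, 64.9, 69.9 and 112 FPKM with VCD and 77.7, 81.9, 83.2 and 83.4 FPKM with PBS.

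Transcript length and base composition moved with the libraries. Spearman's rho over 8696 genes between a library's deviation and transcript length was 0.05, -0.11, 0.20, 0.15 and -0.20 with VCD and -0.11 to 0.10 with PBS, and with GC content -0.21, 0.09, -0.07, 0.41 and 0.18 with VCD and -0.42 to 0.14 with PBS. The median transcript length was 1270.5 bases for the ribosomal protein genes, 1661 for the respiratory chain and 1591 for the proteasome, against 3057 over all genes. After both trends had been removed from every library, the SD was larger with VCD in 74.9% of all genes (median ratio 1.48), and in 26 of 28 ribosomal protein genes (2.11), 24 of 29 respiratory chain genes (1.75) and 19 of 25 proteasome genes (1.71). The ratio of the subcortical maternal complex was 2.995 after removal and 1.78 before it, with the SD larger with VCD in 6 of 8 genes either way.

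**Figure D4:**
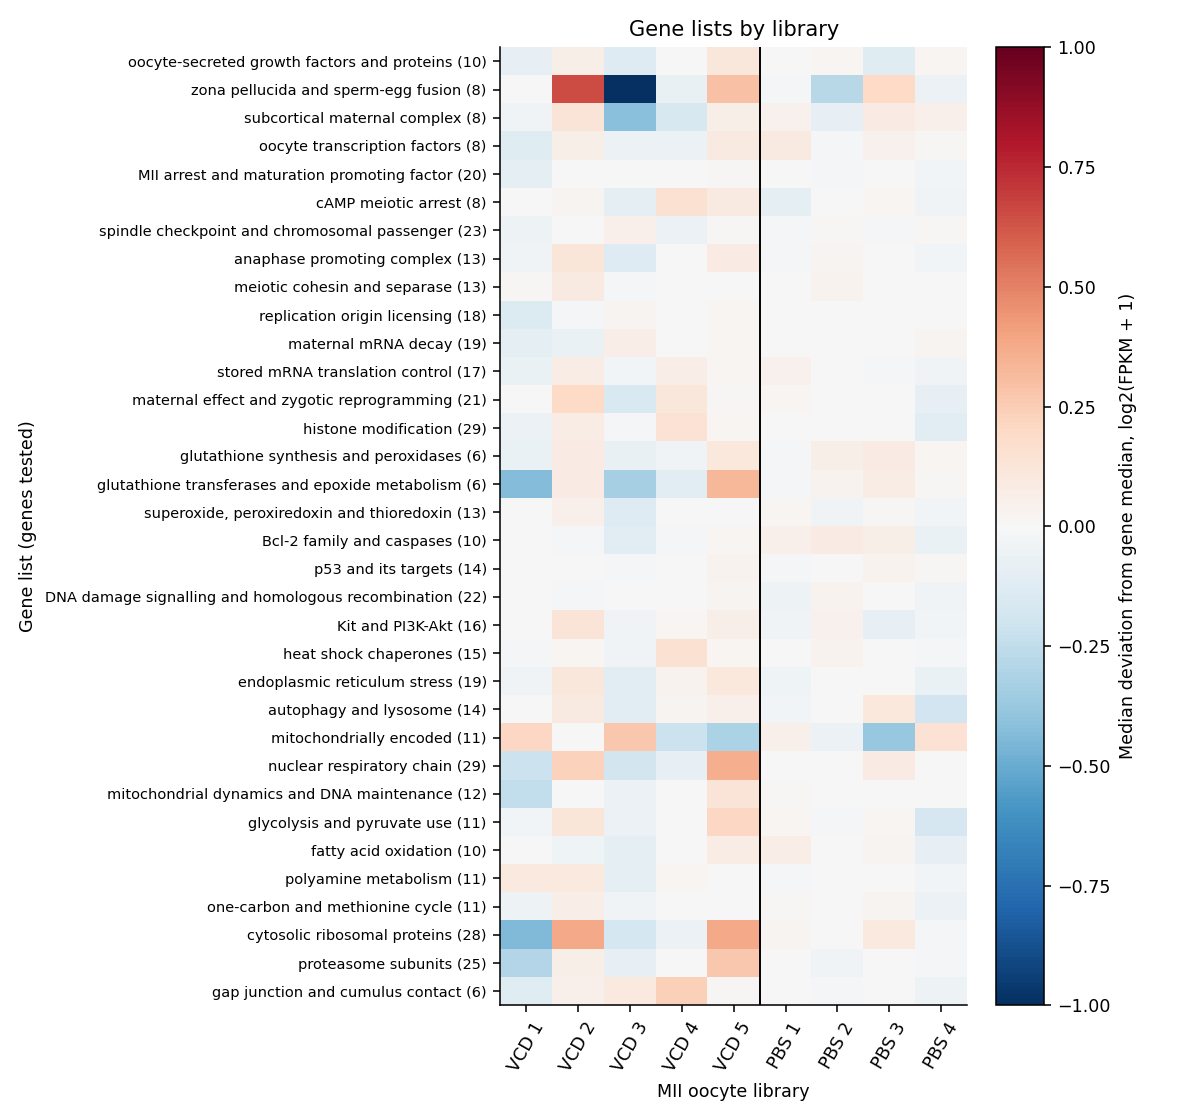
Median deviation of each gene list from the gene medians, on the log2(FPKM + 1) scale, in the 5 VCD libraries (left of the line) and the 4 PBS libraries (right); red is above and blue below the gene median, and the number of genes tested is in brackets. Zona pellucida genes are at 0.65 in VCD replicate 2 and -0.996 in replicate 3, ribosomal protein genes are at -0.44 in VCD replicate 1 and 0.38 in replicates 2 and 5, and DNA damage genes stay near 0 throughout.

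In the genes that make an egg, the list of the subcortical maternal complex was lowest in VCD replicate 3 (-0.42). Nlrp5, a core member needed for cleavage, had 416, 457, 260.4, 261 and 451 FPKM with VCD and 385, 419, 446 and 437 FPKM with PBS. Ooep, another core member, had 101.5, 237, 126.4, 165 and 282 FPKM with VCD and 204, 170.1, 221 and 191 FPKM with PBS. Mos, the kinase upstream of MAP kinase in metaphase II arrest, had 145, 264, 239, 255 and 384 FPKM with VCD and 278, 259, 236 and 251 FPKM with PBS. Dppa3, which protects the maternal genome from demethylation in the zygote, had 60.1, 105, 54.3, 72.6 and 200.2 FPKM with VCD and 69.9, 84.4, 69.8 and 81.0 FPKM with PBS. Dnmt1, the maintenance DNA methyltransferase, had 101.3, 156, 127, 196 and 177 FPKM with VCD and 149, 143, 140.4 and 133 FPKM with PBS. Ooep, Mos, Dppa3 and Dnmt1 were chosen after their values were seen. Over whole lists, the range with VCD held the range with PBS in 6 of 8 genes of the subcortical maternal complex, 10 of 20 of MII arrest and 13 of 21 of maternal effect and reprogramming, against 47.1% of all genes.

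In other lists the median ratio of spread was below the 1.49 of all genes, of which 75.1% had the larger SD with VCD. The SD was larger with VCD in 11 of 22 genes of DNA damage signalling and homologous recombination (median ratio 1.06), in 8 of 14 genes of p53 and its targets (1.10), in 11 of 16 of Kit and PI3K-Akt (1.07), a share of 68.8% that is near that of all genes, and in 3 of 6 of glutathione synthesis and peroxidases (0.827). After removal of the length and GC trends the counts were 12 of 22 (1.02), 10 of 14 (1.20), 11 of 16 (1.24) and 2 of 6 (0.725), in that order. Brca2, of homologous recombination, had 28.4 to 38.1 FPKM with VCD and 29.8 to 36.9 FPKM with PBS. Within the damage list Rpa3, a subunit of the single-strand binding protein, was an exception with 48.6, 81.2, 79.9, 86.4 and 104 FPKM with VCD and 83.7 to 89.4 FPKM with PBS. Glutathione transferase Gstm5 also scattered more with VCD, with 62.2, 99.3, 55.5, 48.9 and 97.2 FPKM, against 62.5 to 69.3 FPKM with PBS. Low ratios were not confined to these roles: the one-carbon and methionine cycle had 1.14 and glycolysis and pyruvate use 1.14. The lists of glutathione transferases and epoxide metabolism (1.65) and of the Bcl-2 family and caspases (1.57) lay above 1.49. Whether lists differ from each other in this ratio was not tested.

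**Figure D5:**
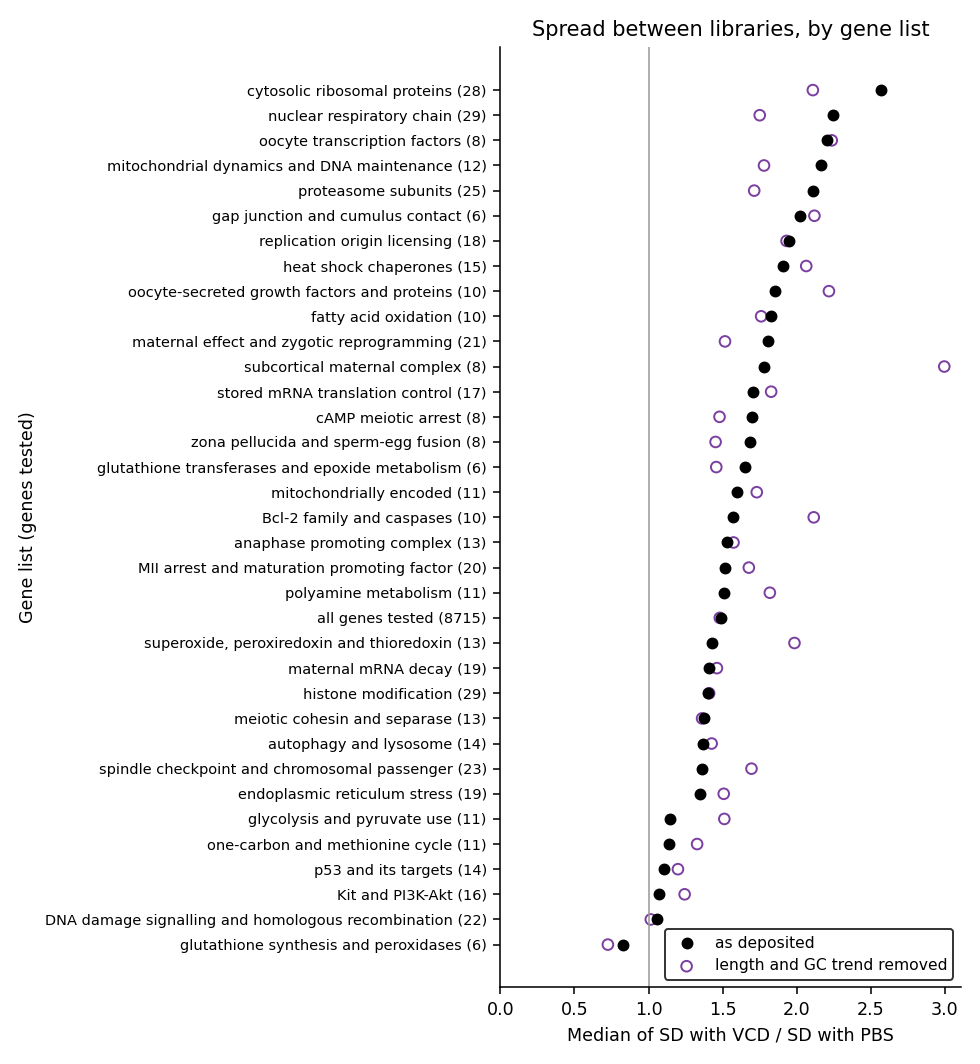
Median over the tested genes of each list of the ratio of the SD with VCD to the SD with PBS (horizontal, linear; 1 is marked), from the values as deposited (filled) and after removal of the length and GC trends (open). The list of cytosolic ribosomal proteins is highest as deposited at 2.57, all genes lie at 1.49, and of the lists plotted, those with at least 6 genes tested, glutathione synthesis and peroxidases lie lowest at 0.827.

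The SD was larger with PBS in 2168 genes. Fth1, the heavy chain of the iron store ferritin, had 14.2, 16.1, 11.7, 15.1 and 38.6 FPKM with VCD and 98.4, 13.0, 34.8 and 22.5 FPKM with PBS (log2 difference -0.84, SE 0.49). That difference was -0.31 without PBS replicate 1, the library at 98.4 FPKM, and -1.25 without PBS replicate 2. Gli3, a transcription factor of hedgehog signalling, had 3.64, 3.66, 7.98, 7.47 and 8.73 FPKM with VCD and 4.26, 2.95, 1.54 and 8.30 FPKM with PBS. Atg5, an autophagy gene needed in the early embryo, was steady with both agents, at 302 to 314 FPKM with VCD and 309 to 322 FPKM with PBS.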

How the data were processed

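The authors deposited gene values with no unit in the header. Multiplied by the summed exon length of the gene (GENCODE M21), 93.0% to 93.4% of values below 200 reads came out whole within 0.01, so the deposited values were taken as FPKM; recovered reads served only for depth. Bowtie2 2.2.3 and TopHat2 2.0.12 are named in the submitters' processing notes; of the annotation and the counting tool, the name is not given in the sources used here. Genes with at least 1 FPKM in 4 of 9 libraries were analysed as log2(FPKM + 1), a scale that understates changes of low genes, with limma 3.58.1 in R 4.3.3 (trend, Benjamini-Hochberg, threshold 0.05). Library measures were tested by exact permutation, two-sided (scipy 1.17.1). Spread was tested with limma on absolute deviations scaled for group size. Both limma tests were run on simulated data with independent genes and, unless changed on purpose, the PBS spread for both agents. The real libraries were wider with VCD, so that run does not show how large a difference the tests could find here. The libraries, gene lists and naming rule were chosen with earlier results of these data known.

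Genes were named if called, if among the 20 of smallest p for the mean with 5 FPKM or more in the higher group, the 10 of smallest p for spread, the 10 of largest SD within either agent or the 10 of highest level, and in each list by highest level and smallest p. Astl, Atg5, Brca2, Cd9, Cox8a, Dnmt1, Dppa3, Fbxo43, Izumo1r, Mos, Ooep, Psma7, Rpa3, Rpl15, Trp53, Uqcrc2 and mt-Co1 were added after their values were seen. Of 118 genes named by the rule, 15 share over 20% of their 50-base words with other genes, among them Tmsb10, Actr3 and Ccnb1, so their values are uncertain. Alternatives were another pseudocount, other filters, median-ratio scaling, array weights, deviations from the median, a replicate block, each library left out in turn and, chosen after seeing the data, removal of length and GC trends. By counts of recovered reads no 2 libraries were duplicates.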

Additional observations from a re-analysis of the deposited data

Results flagged for a closer look

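A single library stood apart from the rest of its agent in 16 of 252 groups examined (6.35%), where chance gives about 1 in 20. With VCD, replicate 5 was low for Atad3a at 4.51 FPKM (others 6.86 to 7.28) and high for Fth1 at 38.6 FPKM (others 11.7 to 16.1). Replicate 3 with VCD was low for Ngrn at 27.9 FPKM (others 30.1 to 30.9), high for the cohesin subunit Stag2 at 7.58 FPKM (others 5.35 to 5.90) and high for Cnot1, the scaffold of the CCR4-NOT deadenylase, at 5.33 FPKM (others 2.75 to 3.33). Replicate 4 with VCD was high for Cdc20, an activator of the anaphase promoting complex, at 255 FPKM (others 209 to 222). Replicate 1 with VCD had a median absolute deviation from the gene medians of 0.152 (others 0.120 to 0.127).

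With PBS, replicate 2 was low for Rangap1 at 2.97 FPKM (others 4.16 to 4.38) and for H1foo at 5812 FPKM (others 5856 to 5859), a small difference among nearly equal values. Replicate 1 with PBS was low for Ube2c at 76.1 FPKM (others 89.3 to 91.8) and high for Pgam1 at 5.51 FPKM (others 4.75 to 4.81). Replicate 3 with PBS was low for mt-Nd6 at 64.6 FPKM (others 108 to 115). Replicate 4 with PBS was high for Spin1 at 5699.9 FPKM (others 5089.5 to 5113) and Mff at 200.8 FPKM (others 187.7 to 189.3), and low for Hadh at 2.87 FPKM (others 3.61 to 3.67) and Psmd4 at 38.6 FPKM (others 45.9 to 47.3).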

How the results depend on the processing

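The count of genes called for the mean, 1 in the limma test, was 0 with a pseudocount of 0.1 (246 genes at an unadjusted p below 0.05), 0 with no filter on low values (782), 0 with a filter at 5 FPKM (110) and 0 with the replicate block (189). It stayed 1 with median-ratio scaling, array weights and removal of length and GC trends, and was 1 without each library in turn. The gene kept was Gm24984 each time. These settings tested the same genes, and Gm24984 had passed the filter only through the VCD libraries, so a kept call is no support for it. The replicate numbers were not taken to pair the samples, since same-numbered VCD and PBS libraries had residual correlations of -0.109, -0.186, -0.325 and -0.297. The count called for spread, 0, was 1922 of 25158 genes with no filter, 421 of them wider with VCD and the rest, the larger part, narrower. The cause was not tested. That count was 0 with a pseudocount of 0.1, a filter at 5 FPKM, median-ratio scaling, the replicate block, deviations from the median and removal of length and GC trends, and without each library. Array weights were not run for spread. The share of genes with a larger SD with VCD was 62.6% to 79.0% over alternatives and 69.6% to 77.4% without 1 library.

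The difference in genes at 1 FPKM or more, 64.0 higher with VCD, was -23.5 to 147.5 without 1 library, and turned negative only without VCD replicate 5. The difference in distance, 0.00423, was 0.00377 to 0.00452 without 1 library (adjusted permutation p 0.0762 to 0.143). Gm24984, the only gene called, lost its call with a pseudocount of 0.1, with no filter and with the replicate block. At this depth, 1 read weighs heavily in short or low genes such as Gm24984.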
